A study of Homo sapiens with 10 samples.

Results

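Cells of the established human line OVCAR-3, derived from an ovarian adenocarcinoma, were released from a silica gel and regrown, and their transcripts were set against those of cells still held in the gel. The comparison rests on 4 of the 10 RNA-seq libraries of the study, chosen by their labels, and on the 15167 of 58222 listed genes that reached 1 TPM in at least 2 of the 10 libraries. TPM is a transcript's share of its library, corrected for transcript length and scaled to a fixed total. Extracted cells lived through 3 days in the gel and were regrown for 2 weeks in standard culture (n = 2), and Day3 cells were sampled after 3 days in the gel (n = 2). The remaining groups, with 2 libraries each, were Day1, held in the gel for 24 hours, Treated, survivors of the DNA-crosslinking platinum drug cisplatin (0.5 uM, 24 hours) that were never in a gel and had 2 weeks of recovery, and Control, kept in standard culture throughout. All groups were grown from this single cell line in RPMI medium with fetal bovine serum, and the study describes the 2 libraries of a group as biological replicates. Because Extracted cells are the survivors of the gel and their descendants, a change in living cells and a selection among cells cannot be told apart. In bulk RNA, fewer cells of a type and less RNA per cell cannot be told apart either.

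A silica gel holds cells in a rigid porous matrix in which they can exchange nutrients but have no room to spread or divide freely. Adherent epithelial cells read such confinement through integrins, which grip the matrix, and through the actin cytoskeleton, which carries tension to the transcriptional coactivators YAP and TAZ and their DNA-binding partners, the TEAD factors. Cells that stop dividing in a stressed state commonly carry cyclin-dependent kinase inhibitors and altered growth-factor signalling, and interferon-stimulated and antigen-presentation genes form a separate programme of innate defence.

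The cell line's markers were present in all libraries. PAX8, a transcription factor of Müllerian epithelium, stood at 352 and 333 TPM in Extracted cells, against 432 and 437 TPM in Day3 cells. Of 13 measured ovarian carcinoma markers 3 were lower in Extracted than in Day3 cells and none was higher. Most markers of other cell types were low, with summed TPM in Extracted and Day3 libraries of 7.53 to 12.1 for 10 fibroblast genes, 4.26 to 6.03 for 12 leukocyte genes, 8.54 to 12.4 for 8 endothelial genes and 15.0 to 18.2 for 6 mesothelial genes. Below 1 TPM in all 4 libraries were 8, 10, 7 and 4 of these genes, in that order. Single genes made up most of 3 sums, with COL1A1 at 6.66 to 9.14 TPM, ERG at 7.19 to 10.3 TPM and UPK3B at 13.2 to 16.4 TPM. COL3A1, CD3D, CD3E, MS4A1, ITGAM, FCGR3A, NKG7, EMCN and ITLN1 were listed at 0 in all 4 libraries. The depth of the libraries is unknown because TPM carry no counts. The transcripts encoded by the mitochondrial genome took 11.1% and 10.6% of all TPM in Extracted libraries, 5.97% and 7.61% in Day3 libraries and 16.7% and 15.8% in Control libraries, so the rest of the transcriptome shared a smaller remainder after release. Small-RNA genes took 3.21% and 0.272% in Extracted and 1.18% and 0.97% in Day3 libraries. RNU6ATAC, a minor-spliceosome RNA, was listed at 10002 and 7597 TPM in Day3 libraries, most of their small-RNA share. It was listed at 0 in the Extracted libraries and likewise in all Control, Day1 and Treated libraries.

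Limma's moderated test on log2(TPM + 1) was used at a Benjamini-Hochberg adjusted p under 0.05. By this test 2599 genes, 17.1% of the 15167 tested, differed in level between Extracted and Day3 cells. Of these, 955 (6.30% of the genes tested) were higher and 1644 (10.8%) were lower in Extracted than in Day3 cells, and 277 and 256 of them passed a 2-fold change. The balance of the calls depended on the scaling: 36.7% of calls were higher as deposited, 51.9% after median-of-ratios scaling (1629 higher, 1511 lower) and 50% when nuclear protein-coding genes alone were rescaled (1498 higher, 1500 lower). With only 2 libraries a group the number of calls also rested on each library, with 1110 calls when Extracted replicate 1 was left out, 877 for Extracted replicate 2, 852 for Day3 replicate 1 and 1086 for Day3 replicate 2. In all 4 of these fits 661 genes were called, 281 higher and 380 lower. Differences below are Extracted minus Day3 in log2(TPM + 1), which understates the ratio for genes of low TPM. Where a gene is placed above or below Control, this describes its libraries and does not by itself mean a call.

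Among called genes that met the naming rule given below, which left out small-RNA genes such as RNU6ATAC and clone-like names, IGFBP5 fell most. This secreted binding protein of insulin-like growth factors is encoded on chromosome 2 (chr2:216672105-216695525, minus strand, GRCh38). It stood at 2.51 and 3.06 TPM in Extracted cells, against 39.6 and 35.4 TPM in Day3 cells and 5.83 and 6.89 TPM in Control cells, so that the mean was 13.5-fold lower in Extracted than in Day3 cells (log2 difference -3.35, SE 0.13, adjusted p = 2e-06). The groups did not overlap, and Extracted cells also lay below Control. SELENOP, which encodes the selenium-carrying plasma selenoprotein, stood at 16.9 and 13.9 TPM in Extracted cells, against 120.0 and 112 TPM in Day3 cells. WNT11, a ligand of noncanonical Wnt signalling, stood at 14.4 and 14.7 TPM in Extracted cells, against 111 and 108 TPM in Day3 cells. Both were 7.53-fold lower by their mean TPM and both fell below the Control range of 40.3 to 55.2 TPM for SELENOP and 39.6 to 62.0 TPM for WNT11. S100A9 and S100A8, partners in the antimicrobial calprotectin complex, fell by 2.35 and 2.28 on the log2 scale. S100A9 was at 2.35 and 2.03 TPM in Extracted cells, against 13.3 and 17.4 TPM in Day3 cells and 2.56 and 2.2 TPM in Control cells, and S100A8 was under 1 TPM in both Extracted libraries, against 8.02 and 6.91 TPM in Day3 cells. VIM, the intermediate filament protein vimentin of mesenchymal cells, stood at 2.04 and 2.08 TPM in Extracted cells, against 11.7 and 11.5 TPM in Day3 cells and 1.66 and 1.84 TPM in Control cells. The other genes among the 12 that fell most were the class II antigen gene HLA-DRA, the peptide transporter SLC15A2, the interferon-stimulated gene IFI44L, the neuronal cytoskeleton protein DPYSL3, the tetraspanin TSPAN7 and complement factor B, CFB, with log2 differences of -2.41 to -1.97. All 12 stayed called without any single one of the 4 libraries.

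NEAT1, the long noncoding RNA that scaffolds nuclear paraspeckles (chr11:65422774-65445540, plus strand, GRCh38), rose most under the same naming rule. It stood at 132 and 135 TPM in Extracted cells, against 22.5 and 18.5 TPM in Day3 cells and 102 and 108 TPM in Control cells, a log2 difference of 2.65 (SE 0.16, adjusted p = 4.05e-05). The Extracted libraries lay above both Day3 libraries and just above both Control libraries. NOS1, neuronal nitric oxide synthase, stood at 14.6 and 17.0 TPM in Extracted cells, against 2.06 and 1.83 TPM in Day3 cells, 8.12-fold higher by the mean. IL18, an inflammasome-processed cytokine of epithelia, stood at 108 and 125 TPM in Extracted cells, against 20.7 and 19.5 TPM in Day3 cells. For NOS1 and IL18 the Control libraries lay between, at 6.53 and 6.32 TPM and at 50.2 and 39.0 TPM. TPM2, which encodes the actin-binding protein beta-tropomyosin, stood at 14.3 and 13.5 TPM in Extracted cells, against 1.88 and 2.11 TPM in Day3 cells and 12 and 14 TPM in Control cells. LAMA3, the alpha chain of the epithelial anchoring laminin, stood at 338 and 411 TPM in Extracted cells, against 78.4 and 77.3 TPM in Day3 cells and 171 and 149 TPM in Control cells. TPM2 thus overlapped Control, whereas LAMA3 exceeded it in both libraries. The epidermal growth factor receptor ligand AREG, the carboxypeptidase CPA4, the HSP90 co-chaperone homologue AHSA2, the cytokine IL6, the snoRNA host gene SNHG4 and the fibroblast growth factor carrier FGFBP1 completed the list, with log2 differences of 2.09 to 2.26. All of these 11 genes also stayed called without any single one of the 4 libraries.

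**Figure D1:**
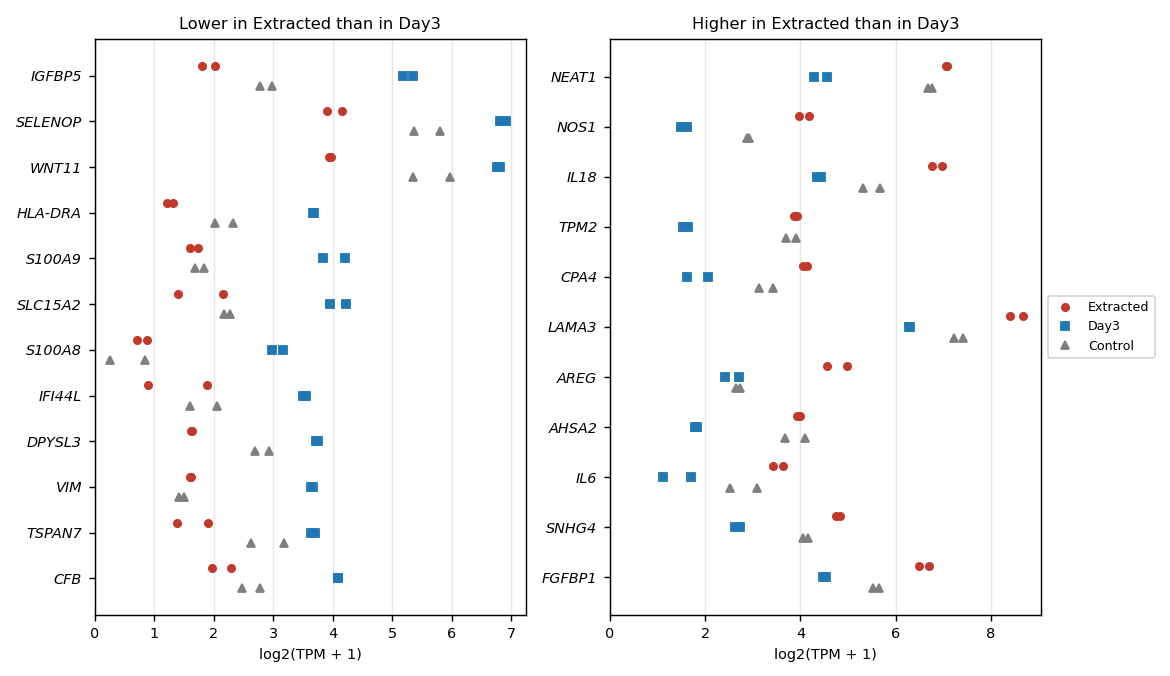
Levels in each library, as log2(TPM + 1) on the horizontal axis, of genes that fell most (left) and rose most (right) in Extracted against Day3 cells. The genes are those that met the naming rule. Each symbol is 1 library, with 2 per group. In every gene shown the Extracted and Day3 libraries are separate. Control libraries overlap the Extracted range for TPM2 and lie between Extracted and Day3 for WNT11, NOS1 and LAMA3.

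Of 21 measured targets of YAP and TEAD 11 were higher in Extracted than in Day3 cells and none was lower, with a median log2 difference of 0.60 against -0.07 over all genes tested. The count was 6 to 10 when 1 of the 4 libraries was left out, lowest without Extracted replicate 2. CYR61, a matricellular integrin ligand, stood at 144 and 158 TPM in Extracted cells, against 50 and 52.3 TPM in Day3 cells and 147 and 130 TPM in Control cells. CTGF, a related matricellular protein, stood at 127 and 150 TPM in Extracted cells, against 60.3 and 63.8 TPM in Day3 cells and 95.1 and 93.1 TPM in Control cells. ANKRD1, a stretch-responsive ankyrin-repeat protein, stood at 27.9 and 27.7 TPM in Extracted cells, against 10.5 and 9.25 TPM in Day3 cells and 42.5 and 34.2 TPM in Control cells. The Extracted libraries thus overlapped Control for CYR61, lay above it for CTGF and lay below it for ANKRD1. F3, tissue factor, rose by 1.53 on the log2 scale. IGFBP3, LATS2 and TGFB2 were among the 10 measured members not called, with log2 differences of -0.25, 0.29 and 0.09. The TEAD motif CATTCC, searched on both strands of the 250 bases upstream of the start in RefSeq promoters (GRCh38.p14), was found for 5 of the 9 called members in the table and for 4 of the 8 uncalled ones, against 14.3% of all 27305 symbols in the table, a symbol counting once if any of its windows matched. CYR61 and CRIM1 had no window in the promoter table, so they were not searched. The windows of CTGF (chr6:131951373-131951622, minus strand) and ANKRD1 (chr10:90921088-90921337, minus strand) are shown because these targets held the most matches, with the motif in capitals as read on the gene's strand.
CTGF: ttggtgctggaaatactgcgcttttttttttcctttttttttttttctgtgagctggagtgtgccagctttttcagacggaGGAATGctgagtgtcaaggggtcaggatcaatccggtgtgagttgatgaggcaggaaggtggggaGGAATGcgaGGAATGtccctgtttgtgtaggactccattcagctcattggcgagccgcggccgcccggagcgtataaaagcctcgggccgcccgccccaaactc
ANKRD1: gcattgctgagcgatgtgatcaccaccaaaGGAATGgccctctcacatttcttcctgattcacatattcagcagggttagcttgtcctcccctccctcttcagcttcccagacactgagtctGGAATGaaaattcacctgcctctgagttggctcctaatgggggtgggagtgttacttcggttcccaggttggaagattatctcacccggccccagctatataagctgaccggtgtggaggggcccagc
CTGF held 3 matches, at 169, 104 and 95 bases before the start, and ANKRD1 held 2, at 220 and 128 bases. A match is a description of the sequence and not evidence of binding.

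Of 26 measured genes of the actin cytoskeleton 11 were higher and none was lower (median 0.35, and 5 to 9 higher with 1 library left out, lowest without Extracted replicate 2). Besides TPM2, the largest rises were those of FHL2, a LIM-domain cofactor, at 54.1 and 62.9 TPM in Extracted cells, against 24.3 and 28.4 TPM in Day3 cells, and of CALD1, the actomyosin regulator caldesmon, at 159 and 169 TPM against 87.5 and 79.5 TPM. FLNA, the actin crosslinker filamin A, stood at 297 and 340 TPM in Extracted cells, against 186 and 184 TPM in Day3 cells. Control levels were 201 and 185 TPM for CALD1 and 304 and 324 TPM for FLNA, close to the Extracted libraries, whereas FHL2 was at 32.7 and 27.4 TPM in Control.

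Of 22 measured integrins, laminins and adhesion genes 7 were higher and none was lower (median 0.28, and 6 or 7 higher with 1 library left out). CD44, the hyaluronan receptor, stood at 26.7 and 41.3 TPM in Extracted cells, against 10.2 and 10.1 TPM in Day3 cells and 11.7 and 10.6 TPM in Control cells. ITGA3, the laminin-binding integrin alpha chain, stood at 159 and 213 TPM in Extracted cells, against 71.7 and 70.4 TPM in Day3 cells and 102 and 83.3 TPM in Control cells. PLEC, which encodes plectin, the linker between keratin filaments and the plasma membrane, rose by 1.28 on the log2 scale. CD44, ITGA3 and LAMA3 thus stood higher in both Extracted libraries than in any Day3 or Control library, and the integrin beta chain ITGB1 differed by 0.11 without being called.

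In the extracellular matrix list 11 of 27 measured members were higher and 2 were lower (median 0.40). The number higher was 5 to 9 with 1 library left out, lowest without Extracted replicate 2 and without Day3 replicate 1. The plasminogen activators moved in opposite directions. PLAU, urokinase, stood at 117 and 139 TPM in Extracted cells, against 37.5 and 41.8 TPM in Day3 cells, and PLAT, tissue plasminogen activator, stood at 6.88 and 7.12 TPM in Extracted cells, against 16.3 and 17.4 TPM in Day3 cells. THBS1, thrombospondin, stood at 39.9 and 48.0 TPM in Extracted cells, against 17.0 and 12 TPM in Day3 cells and 45.1 and 45.6 TPM in Control cells. TIMP3, an inhibitor of matrix metalloproteinases, rose by 1.12 on the log2 scale. FN1, fibronectin, differed by 0.21 and was not called.

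Junction genes went the other way more often, with 2 of 24 measured members higher and 6 lower (median -0.21). The counts with 1 library left out were 1 to 2 higher and 2 to 4 lower, with 2 lower without Extracted replicate 1 and without Day3 replicate 1. CLDN1, a sealing claudin, stood at 204 and 237 TPM in Extracted cells, against 77.8 and 82.2 TPM in Day3 cells, whereas CLDN4, another claudin, stood at 83.3 and 82.5 TPM in Extracted cells, against 132 and 146 TPM in Day3 cells. DSC2, a desmosomal cadherin, stood at 36.7 and 34.0 TPM in Extracted cells, against 72.9 and 69.1 TPM in Day3 cells. TJP3, a scaffold of tight junctions, fell by 0.67 on the log2 scale, with an adjusted p of 0.0276 to 0.0784 when 1 library was left out (0.0589 without Extracted replicate 1 and 0.0784 without Day3 replicate 1). Among keratins and vimentin 6 of 15 measured genes were higher and VIM alone was lower, and 3 or 4 were higher with 1 library left out (3 without Extracted replicate 2 and without Day3 replicate 1). KRT23, an epithelial keratin, stood at 75.1 and 82.8 TPM in Extracted cells, against 35.9 and 37.1 TPM in Day3 cells, KRT6A rose by 1.25 and KRT17 by 1.09 on the log2 scale. The simple-epithelium keratins KRT8 and KRT18 differed by -0.09 and 0.08 and were not called. Keratins, claudins, histones, metallothioneins and HLA genes have close paralogs among which the authors' quantification could divide reads.

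**Figure D2:**
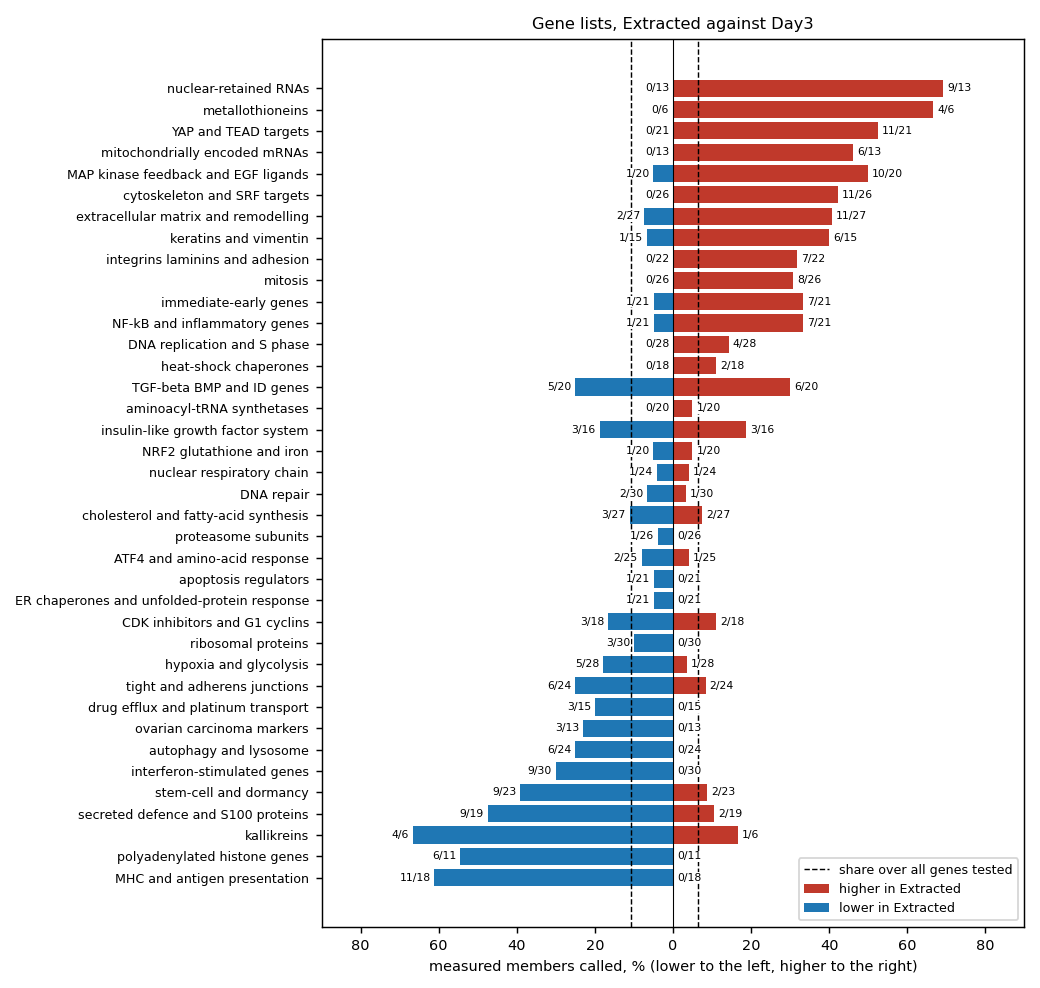
Share of the measured members of each gene list that were called higher (right, red) or lower (left, blue) in Extracted than in Day3 cells, with counts beside the bars and dashed lines at the shares over all genes tested, 6.30% higher and 10.8% lower. Nuclear-retained RNAs, with 9 of 13 higher, stand at the top, and MHC genes, with 11 of 18 lower and none higher, at the bottom, where lists are ordered by the share higher minus the share lower, and lists of fewer than 5 measured genes and 1 other list are not drawn.

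The genes of cell division that were called were higher, by small steps. In the mitosis list 8 of 26 measured members were higher and none was lower (median 0.37), and the count depended on the scaling and on each library: 21 were higher after median-of-ratios scaling and likewise with nuclear protein-coding genes alone, and 2 or 3 were higher with 1 library left out (3 without Extracted replicate 1, 2 without each of the others). MKI67, the proliferation marker Ki-67, stood at 54.4 and 59.0 TPM in Extracted cells, against 40.1 and 32.2 TPM in Day3 cells and 62.1 and 67.9 TPM in Control cells (log2 difference 0.64, adjusted p = 0.0322). Its adjusted p was 0.0642 to 0.202 with 1 library left out. TOP2A, the mitotic topoisomerase, and HMMR, a spindle-associated hyaluronan receptor, rose by 0.72 and 0.71 on the log2 scale, with adjusted p of 0.0757 to 0.146 and 0.0919 to 0.145 with 1 library left out. CENPE, a kinetochore motor, stood at 25.6 and 17.4 TPM in Extracted cells, against 9.65 and 8.56 TPM in Day3 cells and stayed called in all 4 of those fits. In the replication list 4 of 28 measured members were higher and none lower, namely POLE, CDT1, UHRF1 and CCNE1 at 0.37 to 0.76, and with 1 library left out the count was 0 or 1 (1 without Day3 replicate 2). The helicase subunit genes MCM3 and MCM4 differed by -0.13 and 0.16 and PCNA, the polymerase clamp, by 0.08, and none of these was called. The cell-cycle homology region TTTGAA lay upstream of 6 of the 7 called mitotic members in the promoter table and of 8 of the 14 uncalled ones, against 16.1% of all symbols.

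Cell-cycle brakes and the G1 cyclin moved in opposite directions. CDKN1A, the inhibitor p21, stood at 2.65 and 2.76 TPM in Extracted cells, against 9.84 and 10.7 TPM in Day3 cells and 3.45 and 5.69 TPM in Control cells (log2 difference -1.61, adjusted p = 0.000713). CCND1, cyclin D1, stood at 162 and 191 TPM in Extracted cells, against 54.9 and 57.0 TPM in Day3 cells and 106 and 107 TPM in Control cells (log2 difference 1.64, adjusted p = 0.000293). The antiproliferative gene BTG1 fell by 0.86 and the inhibitor CDKN2B by 0.64, CDKN2B with an adjusted p of 0.0534 to 0.0805 with 1 library left out. In all, 2 of 18 members were higher and 3 lower, and 1 and 2 in each fit with 1 library left out, and the balance turned to 5 higher and 3 lower after median-of-ratios scaling and with nuclear protein-coding genes alone.

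Of 30 measured interferon-stimulated genes 9 were lower in Extracted than in Day3 cells and none was higher (median -0.24), with 5 to 7 lower when 1 library was left out, fewest without Extracted replicate 2. IFI44L stood at 2.71 and 0.871 TPM in Extracted cells, against 10.3 and 10.7 TPM in Day3 cells and 2.03 and 3.14 TPM in Control cells. IFITM1, a membrane protein that blocks viral entry, stood at 2.73 and 2.42 TPM in Extracted cells, against 11.6 and 12.3 TPM in Day3 cells and 2.55 and 3.78 TPM in Control cells. OAS1, a sensor of double-stranded RNA, stood at 4.14 and 4.78 TPM in Extracted cells, against 11.8 and 11.6 TPM in Day3 cells and 3.9 and 5.18 TPM in Control cells. In all of these the Extracted libraries lay near Control and well apart from Day3. IRF9, the DNA-binding subunit of the interferon response complex, fell by 1.04, with an adjusted p of 0.0842 when Extracted replicate 2 was left out, 0.0632 for Day3 replicate 1 and 0.0567 for Day3 replicate 2. Classical members such as ISG15 and IFIT3 differed by -0.14 and -0.26 and were not called. The interferon response motif, GAAA followed by any 2 bases and GAAA, on either strand, lay in the 250 bases upstream of 7 of the 9 called members and of 12 of the 15 uncalled members in the promoter table, against 3.71% of all symbols. The windows of IFI44L (chr1:78620198-78620447, plus strand), IFI6 (chr1:27672193-27672442, minus strand) and IFITM1 (chr11:313790-314039, plus strand) are shown as the members with the largest falls and the most matches, with the motif in capitals.
IFI44L: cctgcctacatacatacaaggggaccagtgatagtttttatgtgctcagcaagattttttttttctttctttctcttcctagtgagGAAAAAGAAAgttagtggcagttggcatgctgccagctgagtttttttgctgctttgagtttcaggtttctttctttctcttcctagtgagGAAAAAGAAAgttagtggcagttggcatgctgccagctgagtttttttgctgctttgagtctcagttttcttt
IFI6: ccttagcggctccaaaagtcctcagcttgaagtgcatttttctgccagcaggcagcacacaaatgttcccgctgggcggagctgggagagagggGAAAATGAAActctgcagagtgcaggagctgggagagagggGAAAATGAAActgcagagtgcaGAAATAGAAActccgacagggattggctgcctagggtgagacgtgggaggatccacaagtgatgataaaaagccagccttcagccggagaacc
IFITM1: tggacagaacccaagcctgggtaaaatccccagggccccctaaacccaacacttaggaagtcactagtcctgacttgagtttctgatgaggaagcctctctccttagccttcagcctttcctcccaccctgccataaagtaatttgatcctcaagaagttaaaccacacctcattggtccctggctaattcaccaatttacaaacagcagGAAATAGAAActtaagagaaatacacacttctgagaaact
IFI6 held 3 matches within 156 bases of the start, IFI44L 2 and IFITM1 1, and uncalled members held the motif as well.

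Antigen-presentation genes fell as well, with 11 of 18 measured members lower and none higher (median -0.55, and 6 to 8 lower with 1 library left out, fewest without Extracted replicate 2). HLA-B, a class I heavy chain, stood at 48.7 and 49.7 TPM in Extracted cells, against 89.0 and 124 TPM in Day3 cells and 52.4 and 69.8 TPM in Control cells. HLA-DRA, a class II chain usually restricted to antigen-presenting cells, stood at 1.5 and 1.33 TPM in Extracted cells, against 11.9 and 11.7 TPM in Day3 cells and 3.08 and 4.02 TPM in Control cells. Both classes were thus lower after release, and HLA-DRA lay below Control too. HLA-DMA and HLA-DRB1 fell by 0.91 and 0.90, with adjusted p of 0.0521 for HLA-DMA without Extracted replicate 2, and of 0.111, 0.0741 and 0.149 for HLA-DRB1 without Extracted replicate 1, Extracted replicate 2 and Day3 replicate 2. The 12 leukocyte markers, of which 10 were below 1 TPM in all 4 libraries, had summed TPM of 5.35 and 4.35 in Extracted and 4.26 and 6.03 in Day3 libraries. Sums this low cannot show whether these markers moved, and the source of the antigen-presentation transcripts was not tested.

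Secreted defence proteins showed the same direction, with 9 of 19 measured members lower and 2 higher (median -0.34, 6 lower in each fit with 1 library left out). LCN2, the iron-sequestering lipocalin, stood at 26.7 and 33.4 TPM in Extracted cells, against 61.1 and 76.4 TPM in Day3 cells and 17.2 and 16 TPM in Control cells. Both Extracted libraries thus lay above Control, but in limma's test the difference from Control was not called (adjusted p = 0.0538). CFB stood at 3.89 and 2.92 TPM in Extracted cells, against 16.1 in both Day3 libraries and 4.55 and 5.84 TPM in Control cells. The inflammatory genes of the NF-kB list went the other way, with 7 of 21 higher and 1 lower (median 0.50), and 3 to 5 higher with 1 library left out, fewest without Extracted replicate 2 and without Day3 replicate 1. IL6 stood at 9.77 and 11.4 TPM in Extracted cells, against 2.25 and 1.16 TPM in Day3 cells and 7.53 and 4.74 TPM in Control cells. LIF, a cytokine of the IL6 family, stood at 26.2 and 34.4 TPM in Extracted cells, against 11.9 and 11.1 TPM in Day3 cells and 31.0 and 29.3 TPM in Control cells. The chemokine CXCL8 rose by 1.01, with an adjusted p of 0.0502 to 0.154 with 1 library left out.

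**Figure D3:**
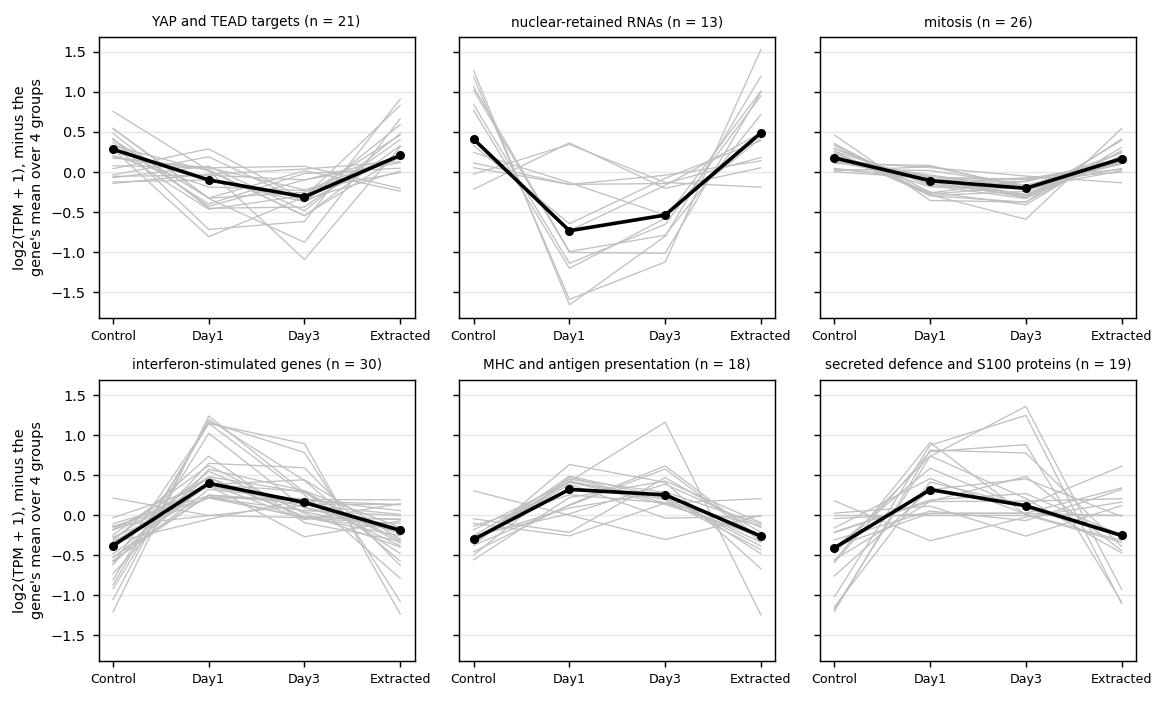
Levels of 6 gene lists in Control, Day1, Day3 and Extracted cells. Grey lines are all measured members, each as its group mean of log2(TPM + 1) minus its mean over the 4 groups, and the black line is the median member. In Extracted cells the median stands at 0.21 for YAP and TEAD targets, against -0.31 in Day3 and 0.28 in Control, and at -0.26 for MHC genes, against 0.25 in Day3 and -0.30 in Control.

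Immediate-early and growth-factor genes were among the largest rises. Of 21 immediate-early genes 7 were higher and 1 was lower, with a median of 0.04 and 4 higher in each fit with 1 library left out. EGR1, a serum-induced zinc finger factor, stood at 44.3 and 34.9 TPM in Extracted cells, against 8.07 and 9.19 TPM in Day3 cells and 18.9 and 19.4 TPM in Control cells. FOS, a subunit of the AP-1 factor, stood at 27.2 and 21.7 TPM in Extracted cells, against 5.13 and 5.97 TPM in Day3 cells and 8.14 and 9.74 TPM in Control cells. FOSL1, another AP-1 subunit, stood at 18.8 and 29.6 TPM in Extracted cells, against 6.29 and 6.85 TPM in Day3 cells and 4.14 and 4.08 TPM in Control cells. These members were higher than in Day3 and in Control in both Extracted libraries, while JUN differed by 0.01 and was not called. In the list of MAP kinase feedback genes and EGF ligands 10 of 20 were higher and 1 lower (median 0.51, and 4 to 7 higher with 1 library left out, fewest without Extracted replicate 2). AREG stood at 22.5 and 30.3 TPM in Extracted cells, against 4.35 and 5.55 TPM in Day3 cells and 5.62 and 5.25 TPM in Control cells. DUSP5, a phosphatase that ends ERK signalling, stood at 23.8 and 27.7 TPM in Extracted cells, against 7.86 and 7.15 TPM in Day3 cells and 10.2 and 10.4 TPM in Control cells. The feedback inhibitor SPRY1 and the EGF receptor ligand TGFA rose by 1.07 and 0.95.

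TGF-beta and BMP genes split, with 6 of 20 higher and 5 lower, and with 3 higher and 0 to 2 lower when 1 library was left out. BMPER, an extracellular BMP modulator, stood at 8.73 and 11 TPM in Extracted cells, against 2.3 and 0.997 TPM in Day3 cells and 10.1 and 13.1 TPM in Control cells, and LTBP1, which stores latent TGF-beta, rose by 0.88. SKIL, a repressor of SMAD signalling, and BMP7, a BMP ligand, fell by 0.80 and 0.70, with adjusted p of 0.0457 to 0.0825 and 0.0631 to 0.165 with 1 library left out (under the threshold for SKIL without Extracted replicate 2 alone). In the insulin-like growth factor list 3 of 16 were higher and 3 lower. Next to IGFBP5, IGFBP7 stood at 4.84 and 4.75 TPM in Extracted cells, against 18.1 and 20.1 TPM in Day3 cells and 13.6 and 17.5 TPM in Control cells. H19, an imprinted noncoding RNA, stood at 33.6 and 27.3 TPM in Extracted cells, against 93.1 and 99.9 TPM in Day3 cells and 91.0 and 111 TPM in Control cells. Both fell to below the level of cells that had never been in the gel. IRS2, an adaptor of the insulin receptor, rose by 1.23.

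Genes of the stem-cell and dormancy list were lower in 9 of 23 cases and higher in 2, with 4 lower in each fit with 1 library left out. The falls were led by WNT11. BHLHE41, a circadian and dormancy-associated repressor, stood at 116 and 126 TPM in Extracted cells, against 285 and 258 TPM in Day3 cells and 114 and 131 TPM in Control cells. ALDH1A1, a retinaldehyde dehydrogenase used as a stem-cell marker, stood at 9.24 and 9.37 TPM in Extracted cells, against 21.1 and 19.5 TPM in Day3 cells, with an adjusted p of 0.0428 to 0.0663 when 1 library was left out. BHLHE41 was within the Control range, and ALDH1A1 lay below the Control values of 13.5 and 17.7 TPM. WFDC2, the ovarian carcinoma antigen HE4, was lower in the same direction, at 606 and 600 TPM in Extracted cells, against 1132 and 1207 TPM in Day3 cells and 523 and 542 TPM in Control cells. MUC1 fell by 0.86 and WT1 by 0.64, the WT1 difference with an adjusted p of 0.109 to 0.188 with 1 library left out, and MUC16, the CA-125 antigen, differed by 0.06 and was not called.

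Counts in metabolic and stress lists are read against the 17.1% of all genes called, and those for hypoxia and glycolysis (21.4%), lipid synthesis (18.5%) and the amino-acid response (12%) lay near or below it. Metallothioneins and zinc handling genes were higher in 4 of 6 cases (2 or 3 with 1 library left out), led by MT2A, which stood at 115 and 132 TPM in Extracted cells, against 29.3 and 38.0 TPM in Day3 cells and 50.9 and 56.5 TPM in Control cells. MT1F rose by 1.07, with an adjusted p of 0.0225 to 0.0658 with 1 library left out (0.0608 without Extracted replicate 2), and the zinc exporter SLC30A1 by 0.74. Autophagy and lysosome genes were lower in 6 of 24 cases and higher in none, but in 1 or 2 with 1 library left out (2 without Day3 replicate 2). LAMP2, a lysosomal membrane protein, stood at 68 and 67.9 TPM in Extracted cells, against 95.5 and 94.2 TPM in Day3 cells and 71.5 and 74.3 TPM in Control cells, with an adjusted p of 0.0504 to 0.0642 in limma's test with 1 library left out. Hypoxia and glycolysis genes were lower in 5 of 28 cases and higher in 1, with 2 lower in each fit with 1 library left out. After median-of-ratios scaling 3 were higher and 3 lower, and with nuclear protein-coding genes alone 3 and 4. P4HA1, a collagen prolyl hydroxylase, and BNIP3L, a mitophagy receptor, fell by 0.75 and 0.73. Of 27 lipid synthesis genes 2 were higher and 3 lower, and 1 was lower in each fit with 1 library left out. The balance turned to 4 higher and 1 lower under both of those scalings. FASN, fatty acid synthase, stood at 118 and 125 TPM in Extracted cells, against 61.0 and 62.4 TPM in Day3 cells and 102 and 110 TPM in Control cells, whereas the desaturase FADS2 fell by 0.73. ATF3, a stress-induced transcription factor, stood at 17.2 and 16 TPM in Extracted cells, against 56.7 and 59.9 TPM in Day3 cells and 13.6 and 14.1 TPM in Control cells. SLC7A5, the leucine transporter, stood at 227 and 254 TPM in Extracted cells, against 85.4 and 81.4 TPM in Day3 cells and 169 and 161 TPM in Control cells. Both belong to the amino-acid response list, in which 1 of 25 was higher and 2 were lower.

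Kallikreins, secreted proteases clustered on chromosome 19, were lower in 4 of 6 cases, with 0 or 1 lower when 1 library was left out, and KLK10 alone was higher, at 55.2 and 52.5 TPM in Extracted cells, against 32.6 and 35.7 TPM in Day3 cells. KLK7, KLK8 and KLK5 fell by 1.18, 0.60 and 0.56. Polyadenylated histone transcripts were lower in 6 of 11 cases and higher in none (5 lower in each fit with 1 library left out). HIST1H1C, a linker histone, stood at 67.3 and 71.4 TPM in Extracted cells, against 149 and 135 TPM in Day3 cells and 101 and 108 TPM in Control cells, and HIST1H2AC, HIST1H4H and HIST1H2BD fell by 0.92 to 1.01.

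Nuclear-retained RNAs had the largest share of higher members, 9 of 13 with none lower (median 0.97, and 7 or 8 higher with 1 library left out). PABPC1L, a poly(A)-binding protein gene known for retained introns, stood at 41.2 and 38.1 TPM in Extracted cells, against 9.94 and 8.47 TPM in Day3 cells and 38.2 and 45.2 TPM in Control cells. CCNL2, a cyclin of splicing speckles, stood at 118 and 136 TPM in Extracted cells, against 40.1 and 41.9 TPM in Day3 cells and 101 and 136 TPM in Control cells. GOLGA8A, whose reads may be divided with its near copy GOLGA8B, rose by 2.01. These genes lay within or next to the Control range after release. Of the mitochondrially encoded mRNAs 6 of 13 were higher and none was lower (median 0.69), and with 1 library left out the count was 1, except 6 without Day3 replicate 2. MT-ND6, a complex I subunit encoded on the opposite strand from the other mRNAs, stood at 162 and 120 TPM in Extracted cells, against 39.2 and 42.5 TPM in Day3 cells and 223 and 264 TPM in Control cells. MT-CO3, a subunit of cytochrome c oxidase, stood at 12642 and 12565 TPM in Extracted cells, against 5395 and 7088 TPM in Day3 cells and 15920 and 15413 TPM in Control cells, with an adjusted p of 0.0549, 0.0601 and 0.0896 without Extracted replicate 1, Extracted replicate 2 and Day3 replicate 1. These levels were thus between Day3 and Control. Library selection and RNA quality were not described, and their part in these differences was not tested.

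A further 10 lists stood between 3.85% and 20% called, against the background of 17.1%, and which direction held more calls changed with the scaling for 6 of them (ER chaperones, NRF2 targets, apoptosis regulators, DNA repair, ribosomal proteins and proteasome subunits). Among 24 nuclear respiratory chain genes 1 was higher and 1 lower, among 20 aminoacyl-tRNA synthetases 1 was higher, among 21 ER chaperones 1 was lower, among 18 heat-shock chaperones 2 were higher, among 20 NRF2 targets 1 was higher and 1 lower, among 21 apoptosis regulators 1 was lower, among 30 DNA repair genes 1 was higher and 2 were lower, among 15 efflux and platinum transport genes 3 were lower, among 30 ribosomal protein genes 3 were lower and among 26 proteasome subunits 1 was lower. Where no member of a described list was called in one direction, the limma fit at an unadjusted p under 0.05 gave 1 lower YAP and TEAD target, 2 lower cytoskeleton genes, 3 lower adhesion genes, 1 lower zinc handling gene and 1 higher ovarian carcinoma marker. It also gave 2 lower among 3 measured fibroblast markers and 1 lower among 4 measured leukocyte markers. It gave none in the mitosis, replication, nuclear-retained and mitochondrial lists (lower) or in the interferon, MHC, autophagy and histone lists (higher). By gene class, 6.03% of 12957 protein-coding genes were higher and 11.9% lower, whereas 9.73% of 514 lincRNAs were higher and 7% lower. Of 20 SNHG snoRNA host genes, a set chosen after its values were seen, 9 were higher and 1 was lower.

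The comparison of Day1 with Control shares no library with that of Extracted with Day3, so that the direction at 24 hours in the gel could be set against the direction after release. Both came from 1 fit with a common spread for each gene, however. A gene of low spread is more easily called in both, so the shares called are not independent. On Day1 2180 genes (14.4% of those tested) were higher and 952 (6.28%) were lower than in Control. Of the genes higher on Day1, 27.1% (591) were lower and 1.88% (41) were higher in Extracted than in Day3 cells, with a median log2 difference of -0.25. Of the genes lower on Day1, 40.9% (389) were higher and 2.52% (24) were lower in Extracted than in Day3 cells, with a median of 0.40. Among the 12035 genes not called on Day1 the shares were 4.36% higher and 8.55% lower. Seen from the other side, 40.7% of all genes higher and 35.9% of all genes lower in Extracted than in Day3 cells had moved the opposite way by 24 hours. The 980 genes that ran opposite ways in the 2 comparisons numbered 381 and 429 without Control replicates 1 and 2, and 352 to 439 when 1 Extracted or Day3 library was left out. CDKN1A, ATF3 and NEAT1 are examples, with Day1 minus Control differences of 2.00, 3.58 and -2.77. IL18, LAMA3 and SELENOP are among the large changes after release that were not called on Day1, at -0.52, -0.38 and -0.25.

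**Figure D4:**
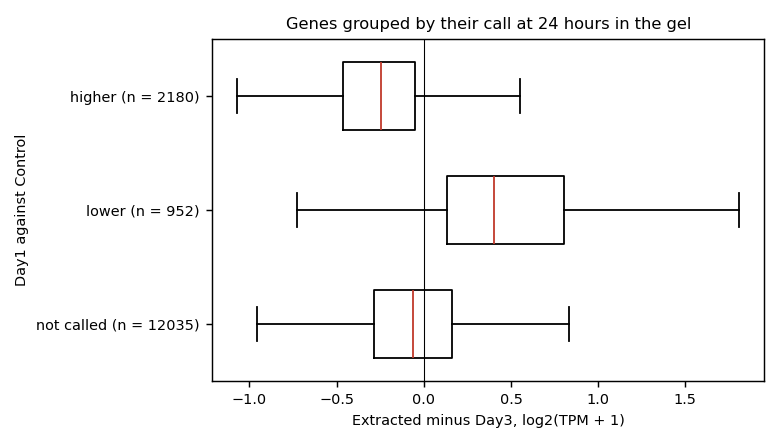
Log2 difference of Extracted minus Day3 (horizontal axis, log2(TPM + 1)) for genes grouped by their call in Day1 against Control. Boxes span the quartiles with the median in red, and whiskers reach the farthest gene within 1.5 times the box length. The median is -0.25 for genes higher on Day1 and 0.40 for genes lower on Day1, on opposite sides of 0.

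Extracted cells were then set against Control cells to see what remained different after 2 weeks. In limma's test 302 genes (1.99% of those tested) were called, 130 higher and 172 lower, and this count rested on each library: it was 19 without Extracted replicate 1, 8 without Extracted replicate 2, 7 without Control replicate 1 and 2 without Control replicate 2. Only TMPRSS15, which encodes enteropeptidase, was called in all 4 of these fits. It stood at 14.6 and 11.8 TPM in Extracted cells, against 41.2 and 41.8 TPM in Control cells, with 23.2 and 21.6 TPM in Day3 cells (log2 difference -1.59, adjusted p = 0.00243, and 0.00326 to 0.0471 with 1 library left out). The genes named next are taken from the 10 largest called differences in each direction and were chosen after their values were seen. These were ranked among genes that met the same limits on level, separation and name as above. With 1 library left out, the adjusted p against Control reached 0.0738 for MN1, 0.0745 for COL5A2 and 0.175 for AMOT. MN1, a transcriptional coregulator, stood at 2.29 and 2.24 TPM in Extracted cells, against 7.43 and 8.03 TPM in Control cells. AMOT, the YAP-binding protein angiomotin, stood at 22.8 and 21.4 TPM in Extracted cells, against 59.5 and 75 TPM in Control cells. For MN1 and AMOT the Day3 libraries were at Control level, with 8.14 and 7.66 TPM and with 66.2 and 62.3 TPM, so that the low level was seen in Extracted libraries and not in the gel. COL5A2, a fibrillar collagen, stood at 9.79 and 8.42 TPM in Extracted cells, against 28.3 and 25.4 TPM in Control cells and 8.63 and 7.17 TPM in Day3 cells. Its Extracted and Day3 libraries overlapped.

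Genes above Control, within the same limits, were led by FOSL1 and AREG, at log2 differences of 2.27 (95% interval 1.70 to 2.84) and 2.07 (1.56 to 2.59). PI3, the protease inhibitor elafin, stood at 25.2 and 39.0 TPM in Extracted cells, against 8.88 and 8.29 TPM in Control cells and 20 and 24.2 TPM in Day3 cells. SOX3, a transcription factor of progenitor cells, stood at 6.1 and 6.89 TPM in Extracted cells, against 2.22 and 1.55 TPM in Control cells and 0.724 and 0.882 TPM in Day3 cells. MMP2, a gelatinase, and PTHLH, parathyroid hormone-like hormone, were higher than in Control by 1.33 and 1.31. Extracted libraries thus lay above both Control and Day3 for FOSL1, AREG, SOX3, MMP2 and PTHLH, and PI3 was above Control on Day3 already. At 24 hours in the gel PI3 and other genes were above Control as well. PI3 stood at 30.8 and 24.1 TPM on Day1. FOSL1 stood at 33.2 and 18.3 TPM on Day1, AREG at 24.3 and 14.9 TPM and PTHLH at 34.1 and 25.8 TPM. Day1 levels were 6.21 and 6.69 TPM for MMP2 and 1.66 and 0.649 TPM for SOX3. The adjusted p against Control, with 1 library left out, reached 0.0866 for FOSL1, AREG, PI3 and MMP2 (without Control replicate 2), 0.213 for SOX3, 0.175 for PTHLH, 0.182 for WNT11 and 0.152 for H19. The same genes in Treated cells, which were never in a gel, stood at 22.9 and 21.6 TPM for FOSL1, 102 and 77.3 TPM for AREG, 139 and 143 TPM for PI3, 4.63 and 4.52 TPM for TMPRSS15 and 1.96 and 2.19 TPM for MN1, each on the same side of Control as in Extracted cells, and H19 stood on the other side, at 149 and 154 TPM. The difference between Treated and Extracted cells was not tested.

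**Figure D5:**
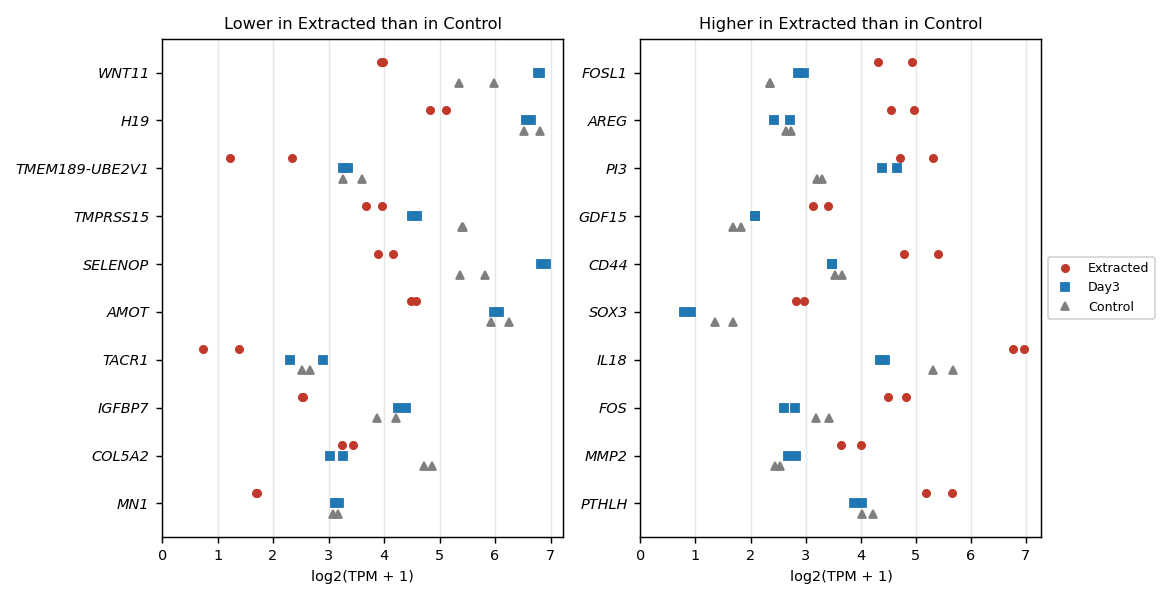
Levels in each library, as log2(TPM + 1), of 10 genes below (left) and 10 above (right) Control in Extracted cells, each symbol being 1 library. They are the largest called differences among genes that met the limits of the naming rule. Day3 libraries coincide with Control for MN1 and AMOT, lie with Extracted for COL5A2, and lie below both groups for SOX3.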

How the data were processed

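RNA was sequenced from 10 cultures in 5 groups of 2, and the groups were taken from the sample labels. The authors deposited TPM per gene and library. Trimmomatic, STAR, Cufflinks and the build GRCh38 are named in the submitters' processing notes, and the sources used here give no versions, annotation release, strand setting or library selection. Without a stated strand setting, reads of a gene and its antisense partner cannot be told apart. TPM are shares that hold no counts, so depth is unknown and no counting interval can be given, and a value listed at 0 may be a failed estimate. The table has 58313 entries, of which 91 share an identifier with another, and their TPM were summed to 58222 genes. GENCODE release 29 held 57959 of these identifiers (99.55%) and gave gene classes and GRCh38 positions.

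A gene was tested if it reached 1 TPM in 2 or more libraries. Tests used log2(TPM + 1) (a pseudocount of 1) and limma 3.58.1 in R 4.3.3, in 1 fit of all 10 libraries with a coefficient for each group, 5 residual degrees of freedom and a trend of variance with mean level. Tests were two-sided, with Benjamini-Hochberg adjustment over all genes tested, and a gene was called at an adjusted p under 0.05. The scripts were tested on simulated data. Nothing but the study's description as biological replicates says how the 2 libraries of a group arose, so p-values measure the spread between these libraries.

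Alternatives were a pseudocount of 0.1, no filter and a filter at 5 TPM, median-of-ratios scaling, rescaling of nuclear protein-coding genes alone or without small-RNA genes, the compared pair alone, the replicate number as a block, a 2-fold minimum and each library left out in turn. The members, gene lists and alternatives were chosen with earlier results of these data known. Genes named were the 12 largest called rises and falls with a mean of at least 5 TPM in either group and separate groups. Small-RNA genes and genes with clone-like or LINC names were left out before the 12 were taken. The same limits held for genes ranked against Control. Also named were up to 4 called members of each list described and a few set markers. Lists were described where at least 1 in 4 measured members, or at least 4, were called. Some genes that this rule named, and 1 gene list, are not reported here. Other names were added after their values were seen. Python 3.11.15, pandas 2.3.3 and Matplotlib 3.10.9 were used.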

Additional observations from a re-analysis of the deposited data

How the results depend on the processing

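Genes called in Extracted against Day3, 2599 as reported, numbered 4079 in a fit of the 2 compared groups alone (1506 higher, 2573 lower), and 533 of the 2599 passed a 2-fold minimum (277 higher, 256 lower). Genes higher numbered 1629 after median-of-ratios scaling and 1498 with nuclear protein-coding genes alone, against 955 as reported. With 1 library left out, calls ranged from 852 to 3206, genes higher from 330 to 1170 and genes lower from 491 to 2037. Genes called in Extracted against Control, 302 as reported, numbered 99 with no filter, 647 after median-of-ratios scaling, 1038 with nuclear protein-coding genes alone, 637 without small-RNA genes, 653 with the compared groups alone and 68 at a 2-fold minimum, and ranged from 2 to 654 with 1 library left out, including 90 without either Day3 replicate and 654 without either Treated replicate. Genes with opposite directions on Day1 and after release, 980 as reported, ranged from 352 to 1386 with 1 library left out. The balance of the calls against Control also moved with the scaling. As reported 130 were higher and 172 lower, against 324 and 323 after median-of-ratios scaling. With nuclear protein-coding genes alone 240 were higher and 798 lower, and without small-RNA genes 332 and 305. Leaving out a Day3 or Treated library left the Extracted minus Control differences as they were (median -0.0173 in each fit). It altered only the spread pooled over all groups and its degrees of freedom. Leaving out a compared library also leaves its group with 1 library. Beyond this, the cause of these changes was not tested.

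No called gene of those that the naming rule gave changed direction in any of these fits in which it was tested. Direction was not checked for the uncalled genes or for names added later. Of the 129 genes that the naming rule gave, 121 were called, 88 of them in all 4 fits that left out 1 compared library and 17 in none of the 4. The labels do not say what the replicate numbers stand for. Over the genes tested, the correlation of deviations between same-numbered libraries was -0.022 to 0.087. A low correlation over all genes does not settle whether libraries were paired. A fit with the replicate number as a block called 2560 genes (954 higher, 1606 lower) in Extracted against Day3 and 243 in Extracted against Control, and all 121 called named genes stayed called. Groups of 2 libraries and TPM without counts limit what any single gene can show.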
